A study of Mus musculus with 2 samples.

Results

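The potassium channel genes of the mouse were taken as every gene whose symbol is Kcn followed by a family letter code and a number, which gave 92 of the 32285 genes listed in the count tables. The rule reads symbols only and uses no measured value. By role, 40 encode voltage-gated pore subunits, 15 accessory subunits, 15 inward rectifiers, 14 two-pore channels and 8 calcium- or sodium-activated channels. Their UMIs (unique molecular identifiers, each standing for 1 captured transcript molecule) were summed over cells of a class within a library and divided by all UMIs of that class, given as CPM (UMIs per 1000000).

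The cells were live EPCAM+ cells sorted from mouse thymus and profiled as droplet single cells, in 1 library titled Foxp1 KO, from Cre+ mice, and 1 titled Foxp1 WT, from Cre- mice. The genotype tag reads KO for both. Which Cre driver was used, which part of Foxp1 was deleted, and how many mice of which age and sex were pooled is not given in the sources used here. Foxp1 itself, a forkhead transcription factor, was at 406 CPM (KO label) and 252 CPM (WT label) in epithelial cells. That order goes against the labels, although whole-gene UMIs need not report a deleted exon, so the libraries are named below by their labels. With 1 library per group, no difference between the libraries has a replicate check and no test was made. The intervals given cover counting error only, at 95%.

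Potassium channels let potassium ions cross the cell membrane and so set the resting potential and end electrical activity. Voltage-gated members open on depolarisation, inward rectifiers and two-pore channels hold the potential near rest, and calcium-activated members couple potassium efflux to calcium signals. Tuft cells, chemosensory epithelial cells, depolarise through the cation channel Trpm5, and neuroendocrine cells release granules through voltage-gated calcium channels. In the thymic medulla, epithelial cells called mimetic cells carry programmes of such peripheral cell types.

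The libraries held 4277 (KO) and 4957 (WT) barcodes with 25233944 and 33120715 UMIs, of which 3584 and 4037 cells were kept, with median depths of 5098 and 6267 UMIs. They shared 5 barcodes. Clusters, built without the potassium channel genes, included 2 tuft-like clusters with 20 and 15 of 20 tuft markers raised and 1 neuroendocrine-like cluster with 15 of 18. The smaller tuft-like cluster was led by Gnat3, the taste G protein, and Rgs21, and also by the muscle genes Myl1 and Myog. Trpm5 stood at 550 (KO) and 566 (WT) CPM in tuft-like cells and at 7.36 and 20.01 CPM in the epithelial cells that were neither tuft-like nor neuroendocrine-like, called other epithelial cells below. Chga, the granule protein chromogranin A, stood at 415 and 565 CPM in neuroendocrine-like cells and at 12.5 and 24.9 CPM in other epithelial cells. Tuft-like cells numbered 270 and 509, neuroendocrine-like cells 170 and 158, and other epithelial cells 2819 and 3213.

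Promoter sequences are shown for 4 channels that the results turn on. Kcnh7 was high in both tuft-like and neuroendocrine-like cells, Kcnd3 in tuft-like cells, and Kcnc1 and Kcnk16 in neuroendocrine-like cells. Each line gives the 250 bases before the RefSeq start on build GRCm38.p6, written 5′ to 3′ on the gene's own strand. Capitals mark every match to the E-box letters CANNTG, which read the same on both strands.
Kcnh7: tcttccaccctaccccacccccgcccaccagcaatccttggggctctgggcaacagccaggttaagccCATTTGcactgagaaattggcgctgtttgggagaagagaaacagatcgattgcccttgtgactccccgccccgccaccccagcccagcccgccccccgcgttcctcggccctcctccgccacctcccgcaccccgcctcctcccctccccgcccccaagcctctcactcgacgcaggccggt
Kcnd3: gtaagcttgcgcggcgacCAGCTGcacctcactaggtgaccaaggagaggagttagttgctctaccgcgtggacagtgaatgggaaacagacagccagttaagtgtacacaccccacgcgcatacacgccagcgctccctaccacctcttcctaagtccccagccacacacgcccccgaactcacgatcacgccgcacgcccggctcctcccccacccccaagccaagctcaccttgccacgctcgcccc
Kcnc1: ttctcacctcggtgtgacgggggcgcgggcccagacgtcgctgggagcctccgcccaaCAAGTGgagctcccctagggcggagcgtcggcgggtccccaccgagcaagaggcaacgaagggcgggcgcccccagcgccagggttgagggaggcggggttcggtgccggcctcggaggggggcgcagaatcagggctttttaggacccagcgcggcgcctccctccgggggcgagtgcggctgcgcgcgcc
Kcnk16: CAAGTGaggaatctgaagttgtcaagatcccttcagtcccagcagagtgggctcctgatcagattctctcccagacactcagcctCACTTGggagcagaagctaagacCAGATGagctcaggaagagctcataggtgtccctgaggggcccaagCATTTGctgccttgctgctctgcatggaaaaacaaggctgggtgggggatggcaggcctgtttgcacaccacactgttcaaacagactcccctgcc
The windows, which end at RefSeq starts and so need not abut the GENCODE spans, lie at chr2:63184288-63184537 (minus strand), chr3:105451640-105451889 (plus), chr7:46396218-46396467 (plus) and chr14:20269270-20269519 (minus). Kcnh7 spans chr2:62693414-63184287 in GENCODE vM21, Kcnd3 chr3:105452330-105674002, Kcnc1 chr7:46396497-46438704 and Kcnk16 chr14:20261376-20269199. The first 3 windows held 1 match each and that of Kcnk16 held 4. An E-box was present in 66.2% of all 32851 listed windows of this length, so its presence sets no window apart. Windows were listed for 67 of the 92 genes. Of the 10 windows of tuft-like called genes listed (9 of 13 genes; the calling rule is given with the values below), 8 held an E-box, as did 3 of the 5 windows of the neuroendocrine-like called genes (5 of 10 genes). The POU octamer ATGCAAAT, searched on both strands because Pou2f3 is the POU factor of tuft cells, was in 0 of those 10 and 0 of those 5 windows and in 1.60% of all windows.

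Epithelial cells contained UMIs of most potassium channel genes, and a few genes gave most of them. At least 1 UMI was seen for 90 (KO) and 91 (WT) of the 92 genes in epithelial cells, and at least 50 UMIs for 50 and 59. Kcnq3, which encodes an M-current subunit, had 29268 UMIs over both libraries, and Kcnma1, the pore of the large-conductance calcium-activated channel, had 23355. These 2 genes made up 48.4% of the 108764 potassium channel UMIs and the 10 highest genes 80.5%. Across the 92 genes, those with a longer genomic span had more UMIs (Spearman rho 0.69, a description over genes that share the same libraries). UMIs are not scaled by length, so the level of a gene is compared below with its own level in another class or library, and the UMI totals of different genes give no order of expression.

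Summed over all 92 genes, tuft-like and neuroendocrine-like cells carried more potassium channel RNA per UMI than the other epithelial cells. The sum was 2842 (KO) and 3019 (WT) CPM in tuft-like cells, 3139 and 3076 CPM in neuroendocrine-like cells, and 1974 and 1753 CPM in other epithelial cells. Tuft-like cells were thus 1.44-fold (interval 1.40 to 1.48) and 1.72-fold (1.69 to 1.76) above the other epithelial cells. Neuroendocrine-like cells were 1.59-fold (1.54 to 1.64) and 1.76-fold (1.71 to 1.80) above them. Much of the tuft-like sum came from 2 genes, Kcnq3 at 990 (KO) and 1143 (WT) CPM and Kcnh7 at 563 and 473 CPM. The sum did not set these classes apart from every epithelial cluster. Basal epithelial-like cluster 7, which is led by Nhs, Ifi202b and Dpp6, reached 4915 and 4087 CPM, mostly from Kcnq3 and Kcnma1. Basal epithelial-like cluster 6, which is led by Gm42418, Gm26917 and AY036118, was at 3550 and 2915 CPM. Its median depth over both libraries, 1886 UMIs, was the lowest of the clusters. In single cells thinned to 2000 UMIs, the mean number of different potassium channel genes detected was 3.96 (KO) and 3.87 (WT) in neuroendocrine-like, 3.18 and 3.07 in tuft-like and 2.25 and 2.19 in other epithelial cells. Without thinning the medians were 9 and 10, 6 and 6, and 4 and 4 genes, at median depths of 8501 and 9874, 5202 and 5481, and 4929 and 6144 UMIs.

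Which members were high in which class was read from a fixed rule of size. A gene counted as called in a class when it had at least 10 UMIs there in each library and stood at least 4-fold above the other epithelial cells in each library. In tuft-like cells 13 of the 32 potassium channel genes with enough UMIs were called (40.6%), against 4.59% of the 11968 genes of any kind with enough UMIs. In neuroendocrine-like cells 10 of 31 were called (32.3%), against 3.17% of 11650 genes. The other 60 and 61 members had too few UMIs for the rule. A total of 18 genes were called in either class and 5 in both. Genes of any kind called in both classes were not counted, so the 5 have no background share beside them. The called genes were mostly voltage-gated pore subunits, which were also the largest group with enough UMIs. Of these, 8 of 13 eligible genes were called in tuft-like cells and 7 of 15 in neuroendocrine-like cells. Among accessory subunits 0 of 6 and 0 of 3 were called, which is too few genes to set beside the 4.59% and 3.17% of all genes. Of inward rectifiers 4 of 6 were called in tuft-like and 1 of 5 in neuroendocrine-like cells, and of two-pore channels 0 of 4 and 2 of 6.

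**Figure D1:**
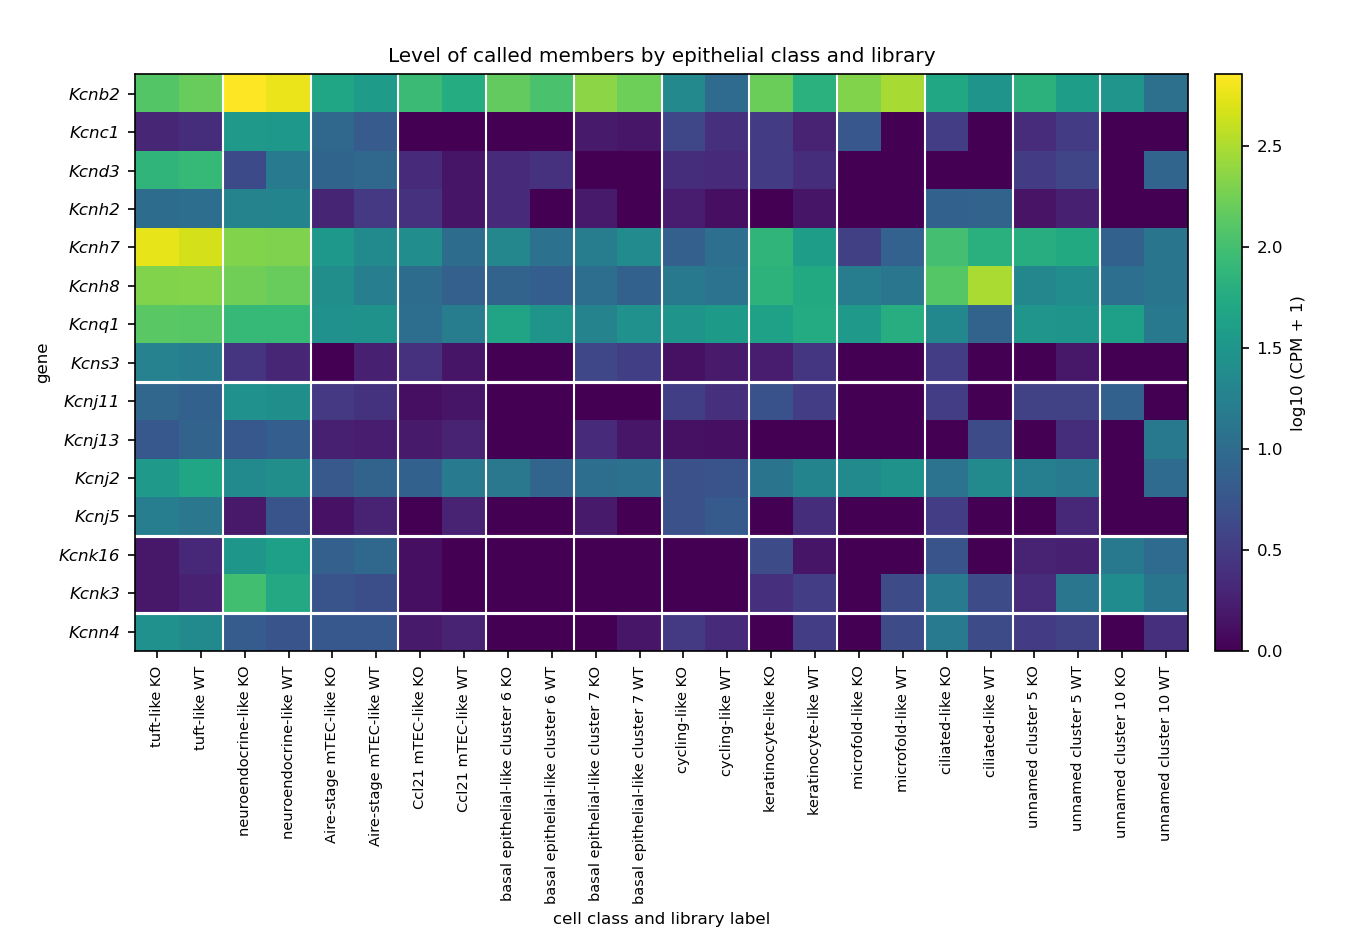
Level of 15 of the 18 called potassium channel genes (rows, grouped by role with white lines: voltage-gated, inward rectifier, two-pore, calcium-activated) in each epithelial class and library (columns), coloured as log10 of CPM plus 1. Kcnh7 and Kcnh8 were high in both tuft-like and neuroendocrine-like columns, Kcnd3 and Kcns3 mainly in the tuft-like columns, and Kcnk3, Kcnk16 and Kcnc1 mainly in the neuroendocrine-like columns.

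The voltage-gated pore genes Kcnh2, Kcnh7 and Kcnh8 were called in both classes. Kcnh7, which encodes an ERG-type channel, was at 563 (KO) and 473 (WT) CPM in tuft-like cells, at 208 and 202 CPM in neuroendocrine-like cells and at 31.6 and 24.7 CPM in other epithelial cells. It therefore stood 17.8-fold (16.1 to 19.7) and 19.1-fold (17.4 to 21.0) above the other epithelial cells in tuft-like cells. Kcnh8, an ELK-type channel, was at 207 and 211 CPM in tuft-like, 174 and 154 CPM in neuroendocrine-like and 22.8 and 20.9 CPM in other epithelial cells. Its level in ciliated-like cells, 125 and 310 CPM, was in the same range, so it was not limited to these classes. Kcnh2, the ERG channel best known from the heart, was at 9.29 and 9.79 CPM in tuft-like, 17.7 and 18.3 CPM in neuroendocrine-like and 0.97 and 1.04 CPM in other epithelial cells.

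In tuft-like cells Kcnd3 and Kcns3 had large folds. Kcnd3, a channel of transient A-type currents, was at 72.8 (KO) and 80.8 (WT) CPM in tuft-like cells and at 2.90 and 3.99 CPM in other epithelial cells, which is 25.1-fold (18.2 to 35.0) and 20.2-fold (16.1 to 25.6). Kcns3, a silent subunit that conducts only together with Kcnb pores, was at 17.5 and 15.5 CPM against 0.70 and 0.84 CPM. Kcnq1, the slow delayed rectifier of heart and gut epithelium, was at 133 and 130 CPM against 26.1 and 30.5 CPM, close to the 4-fold limit. Its partner Kcne3 had 0 UMIs in tuft-like cells of both libraries, which allows up to 1.55 and 0.82 CPM. Kcnn4, the intermediate-conductance calcium-activated channel of epithelia and lymphocytes, was at 26.8 and 21.8 CPM against 2.42 and 2.92 CPM, and was the called member that a calcium signal opens.

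Inward rectifiers were represented in tuft-like cells by Kcnj2, Kcnj5, Kcnj11 and Kcnj13. Kcnj2, the classical strong inward rectifier, was at 34.1 (KO) and 46.8 (WT) CPM in tuft-like cells and at 8.33 and 10.5 CPM in other epithelial cells. Kcnj5, a G protein-gated subunit, was at 15.5 and 12.5 CPM against 0.86 and 1.40 CPM. Kcnj11 and Kcnj13 rested on few UMIs, 15 and 25 for the ATP-sensitive pore Kcnj11 and 10 and 26 for the weak rectifier Kcnj13. Kcnj13 showed a fold of 10.6 and 6.12 in neuroendocrine-like cells too, but from 9 and 12 UMIs, which left it outside the rule there. Kcnj2, at 4.09-fold (KO), lay just inside the limit of 4-fold in tuft-like cells. Kcnk1, at 2.10-fold (WT), and the accessory subunit Kcnab2, at 2.54-fold (WT), lay outside it in 1 library.

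Of the pore genes called in neuroendocrine-like cells, Kcnk3, Kcnk16 and Kcnc1 stood at a few CPM or less in tuft-like cells. Kcnb2, a delayed rectifier of neurons and endocrine cells, was at 718 (KO) and 598 (WT) CPM in this class, against 84.8 and 55.8 CPM in other epithelial cells. It stood 8.46-fold (7.85 to 9.12) and 10.7-fold (9.91 to 11.6) above them. Tuft-like cells also held Kcnb2, with 236 and 569 UMIs, or 116 and 150 CPM without the cell of most UMIs. Kcnk3 (TASK-1), a two-pore leak channel, was at 98.3 and 52.4 CPM in neuroendocrine-like cells, 0.52 and 0.82 CPM in tuft-like cells and 2.26 and 3.91 CPM in other epithelial cells. Kcnk16, the two-pore channel of pancreatic islets, was at 31.4 and 39.7 CPM against 0.52 and 1.09 CPM in tuft-like cells. Kcnc1, a fast delayed rectifier of rapidly firing neurons, was at 33.2 and 32.1 CPM, against 1.03 and 1.36 CPM in tuft-like cells. Kcnj11, the pore of the ATP-sensitive channel of beta cells, was at 26.9 and 25.5 CPM, against 1.77 and 1.44 CPM in other epithelial cells. It was also called in tuft-like cells, from 15 and 25 UMIs. Its regulatory partner Abcc8 (the sulphonylurea receptor) was at 68.0 and 91.1 CPM against 19.6 and 27.9 CPM, under the 4-fold limit.

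Set directly against each other at the same 4-fold limit, the classes differed in 11 members. Tuft-like cells were at least 4-fold above neuroendocrine-like cells in each library for 4 of 32 genes (among them Kcnd3, Kcnn4 and Kcns3), against 2.62% of all genes. Neuroendocrine-like cells were at least 4-fold above tuft-like cells for 7 of 31 genes (among them Kcnc1, Kcnh6, Kcnj3, Kcnj6, Kcnk3 and Kcnk16), against 4.15% of all genes. Of these, Kcnj3 and Kcnj6 encode G protein-gated inward rectifiers. Kcnj3 was at 171 (KO) and 200 (WT) CPM in neuroendocrine-like cells and 29.9 and 32.4 CPM in tuft-like cells. Kcnj3 was not called against other epithelial cells, where unnamed cluster 5, led by Apoc3 and Lypd8, held 121 and 158 CPM. Kcnh6, the remaining ERG-type channel, was at 48.6 and 57.5 CPM in neuroendocrine-like cells, 7.74 and 7.62 CPM in tuft-like cells and 14.6 and 19.8 CPM in other epithelial cells.

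**Figure D2:**
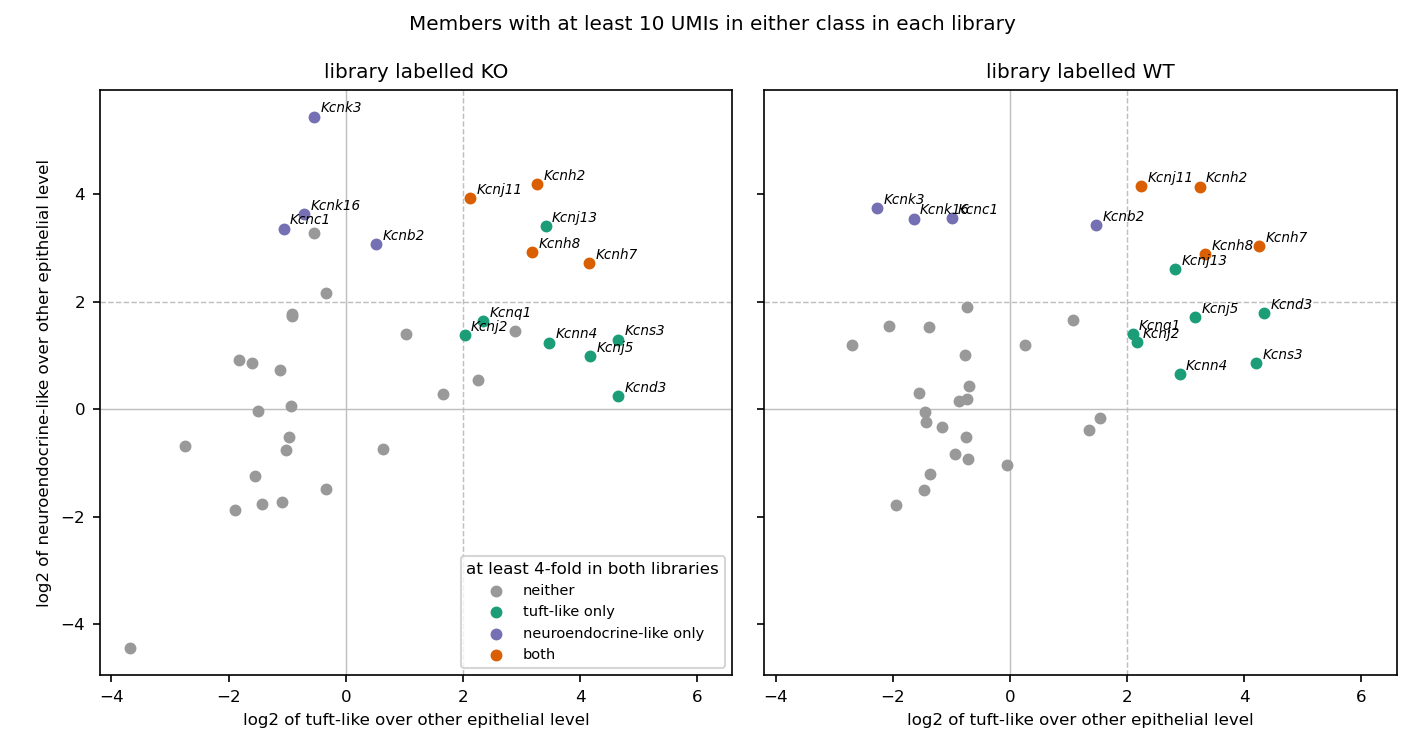
Log2 ratio of the level in tuft-like cells (x axis) and in neuroendocrine-like cells (y axis) to that in other epithelial cells, for members with at least 10 UMIs in either class in each library, 1 panel per library. Dashed lines mark 4-fold, colours mark genes called in tuft-like cells only, neuroendocrine-like cells only and both, and counts under 3 UMIs are drawn at 3.

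The share of cells with a UMI followed the levels. After thinning each cell to 2000 UMIs, a Kcnd3 UMI was present in 14.2% (KO, 10.1 to 19.1) and 14.3% (WT, 11.2 to 17.7) of tuft-like cells and in 0.34% and 0.32% of other epithelial cells (Clopper-Pearson intervals). Kcnk3 was present in 18.1% (12.5 to 24.8) and 8.86% (4.93 to 14.4) of neuroendocrine-like cells and in 0.39% and 0.21% of tuft-like cells. Kcnb2 had a broader floor, with 61.4% and 53.2% of neuroendocrine-like cells, 20.9% and 23.6% of tuft-like cells and 13.0% and 8.89% of other epithelial cells. In thymocyte-like cells Kcnd3, Kcnk3 and Kcnb2 were found in 0 of the thinned cells, which for so few cells has upper bounds of 13.2% and 9.49%. These bounds lie above the Kcnb2 shares of other epithelial cells, so the counts of 0 do not set thymocyte-like cells apart from them. The 20 tuft markers had in other epithelial cells a median of 1.60% (KO) and 2.31% (WT) of their tuft-like level. Such a share pools free RNA, misplaced cells and expression by the other epithelial cells themselves. The neuroendocrine markers had a median of 7.10% and 9.53% of their neuroendocrine-like level, and the highest of them had 50.9% and 37.3%. For Kcnd3 that share was 3.99% and 4.94%, within the range of the tuft markers. For Kcnq1 it was 19.6% and 23.4% and for Kcnj2 24.4% and 22.4%, above the highest tuft marker (7.44% and 7.11%).

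The 2 tuft-like clusters used Kcnh7 to different extents. The Gnat3-led cluster (56 cells KO, 72 cells WT) held 1277 and 1504 CPM of Kcnh7, and the other tuft-like cluster (214 and 437 cells) 239 and 213 CPM, a difference of 5.35-fold (4.69 to 6.12) and 7.06-fold. Kcnh7 was the single member of 14 with enough UMIs past 4-fold, against 1.15% of all genes. After thinning to 2000 UMIs, 66.1% and 59.4% of Gnat3-led cells had a Kcnh7 UMI, and 18.2% and 19.7% of the other tuft-like cells. Kcnh2 was also higher in the Gnat3-led cells, at 16.5 and 21.6 CPM against 6.01 and 6.81 CPM. It had 10 and 16 UMIs there, and the interval of its KO fold (2.75, 0.98 to 8.02) includes no difference. In the other direction 0 of 23 members passed 4-fold (0.636% of all genes) and 2 of 23 passed 2-fold (4.22% of all genes). The calcium-activated Kcnn4 was at 34.5 and 25.5 CPM in the other tuft-like cluster and at 9.91 and 6.76 CPM in the Gnat3-led one. Kcnj5 was likewise at 21.8 and 14.6 CPM against 1.65 and 4.06 CPM, the latter from 1 and 3 UMIs. Kcnd3 was lower in the Gnat3-led cells by unequal amounts, at 9.91 (KO) and 46.0 (WT) CPM against 101 and 89.6 CPM. Kcns3 was at 18.2 and 16.2 CPM in the Gnat3-led cells against 17.3 and 15.3 CPM, with overlapping intervals. The Gnat3-led cells were deeper, with median depths of 10196 and 9306 UMIs against 4568 and 5039, and their part in these values was tested only by the thinning.

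**Figure D3:**
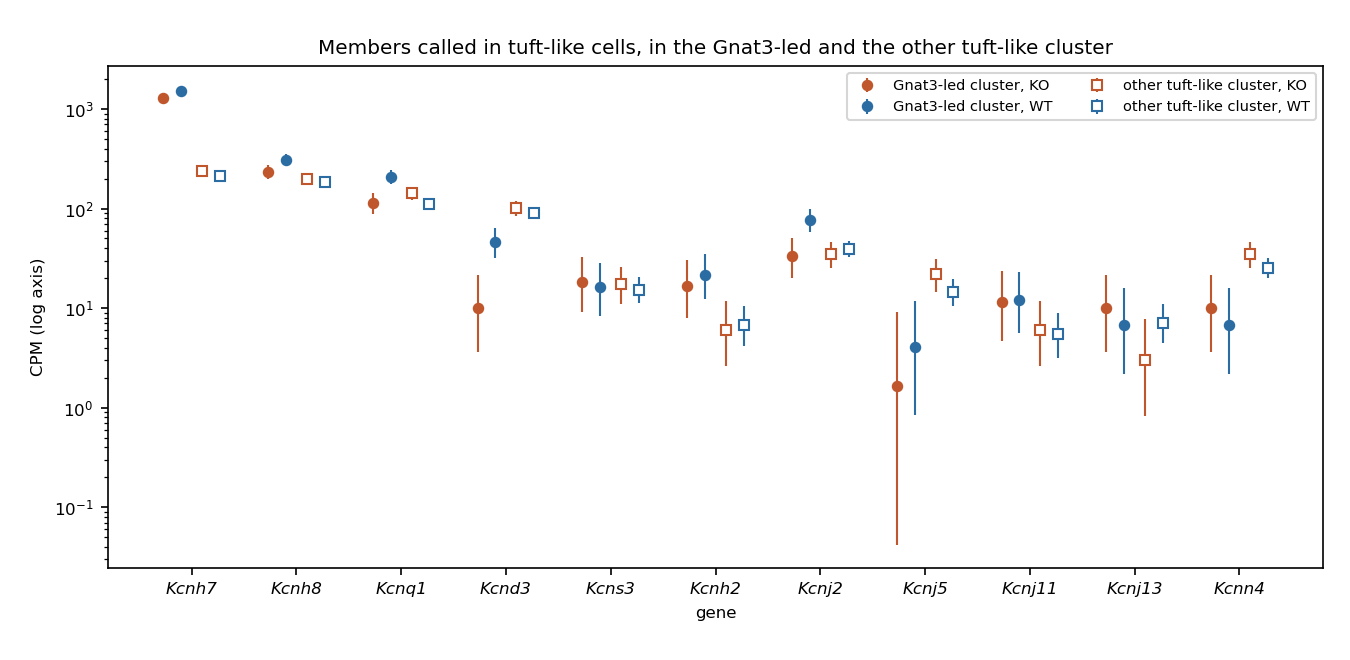
CPM on a log axis of 11 of the 13 genes called in tuft-like cells, in the Gnat3-led cluster (filled circles) and the other tuft-like cluster (open squares), with the library labelled KO in orange and WT in blue and bars for the exact Poisson interval. Kcnh7 sat at 1277 and 1504 CPM in the Gnat3-led cells against 239 and 213 CPM, while Kcnn4 and Kcnj5 lay higher in the other cluster.

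Other epithelial classes had potassium channel genes of their own. Keratinocyte-like cells held Kcnj16, a pH-sensitive inward rectifier, at 77.2 (KO) and 70.1 (WT) CPM against 2.34 and 1.90 CPM in all other epithelial cells, the single call among 23 members (3.64% of all genes). Ciliated-like cells held Kcnk12, a two-pore gene, at 34.0 and 79.3 CPM against 1.24 and 0.95 CPM. Kcnmb1, the beta subunit of the large-conductance channel in smooth muscle, was at 29.5 and 43.2 CPM there against 0.37 and 0.79 CPM. These were 2 of 9 members, against 9.5% of all genes, from 12 to 22 UMIs per library. Kcnmb1 overlaps Kcnip1 on the opposite strand, and the effect of this overlap on its UMIs was not tested. Basal epithelial-like cluster 7 held Kcnh1, an EAG-type channel, at 138 and 194 CPM against 27.04 and 26.8 CPM (1 of 17 members called, 1.81% of all genes). Kcnq3 reached 2575 and 1594 CPM there, against 498 and 401 CPM, and Kcnma1 1225 and 1275 CPM against 380 and 379 CPM. These cells had a median depth of 2878 and 3239 UMIs, against 4929 and 6144 in the other epithelial cells as a whole.

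The Aire-stage medullary cells, which transcribe many tissue-restricted genes at low levels, had 6 of 57 members called (10.5%), near the 9.15% of all genes called there. Kcnk9 (TASK-3), a brain leak channel, was at 4.54 (KO) and 2.50 (WT) CPM against 0.17 and 0.14 CPM. Among all other epithelial cells of the KO library, which include the Aire-stage cells, 13 of its 25 UMIs lay in 1 cell. Kcnt1, a sodium-activated channel of neurons, was at 9.48 and 6.52 CPM against 1.22 and 0.47 CPM. Kcnj12, a strong inward rectifier of muscle, was at 5.14 and 5.43 CPM against 0.52 and 0.19 CPM, and the remaining calls were Kcna6, Kcnk13 and Kcnmb3. For Kcna6, 15 of the 31 UMIs in other epithelial cells of the KO library lay in 1 cell. Of the 63 members whose highest class could be ranked, 53 had the same highest class in both libraries. These were the Aire-stage cells for 17, neuroendocrine-like cells for 11 and tuft-like cells for 10. A class entered the ranking of a member only with at least 10 UMIs in each library. Aire-stage cells had the most UMIs of any class (5061507 KO, 9201420 WT), so a rare member could be ranked there alone. The 17 are therefore no measure of preference for that class. In the Ccl21 mTEC-like cells 0 of 20 members were called (1.01% of all genes) and Kcnk2 (TREK-1), a mechanosensitive leak channel, came closest at 46.8 and 42.1 CPM against 12.2 and 7.25 CPM. In cycling-like cells Kcna2, a fast-opening axonal channel, was at 30.4 and 24.3 CPM, 3.18-fold and 3.87-fold above all epithelial cells outside the class and below the limit. Kcnb2 in microfold-like cells, at 207 and 303 CPM, was 1.52-fold and 3.07-fold above, also below the limit.

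Most member levels were close in the 2 libraries. A gene counted as apart when it had at least 50 UMIs in a class over both libraries and differed at least 2-fold. In tuft-like cells 2 of 23 members were apart, against 3.33% of all genes. In neuroendocrine-like cells 3 of 26 were apart, against 3.91%, and in other epithelial cells 5 of 60, against 4.62%. The median log2 ratio of KO over WT was -0.08, 0.03 and -0.14 for the members in these classes and -0.0059, -0.0047 and -0.0094 for all genes. For Kcnh7, Kcnh8, Kcnq1 and Kcnd3 in tuft-like cells the ratio lay between -0.15 and 0.25. Of epithelial cells, tuft-like cells made up 8.29% (KO) and 13.1% (WT) and neuroendocrine-like cells 5.22% and 4.07%, so the same level per UMI did not mean the same number of cells.

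**Figure D4:**
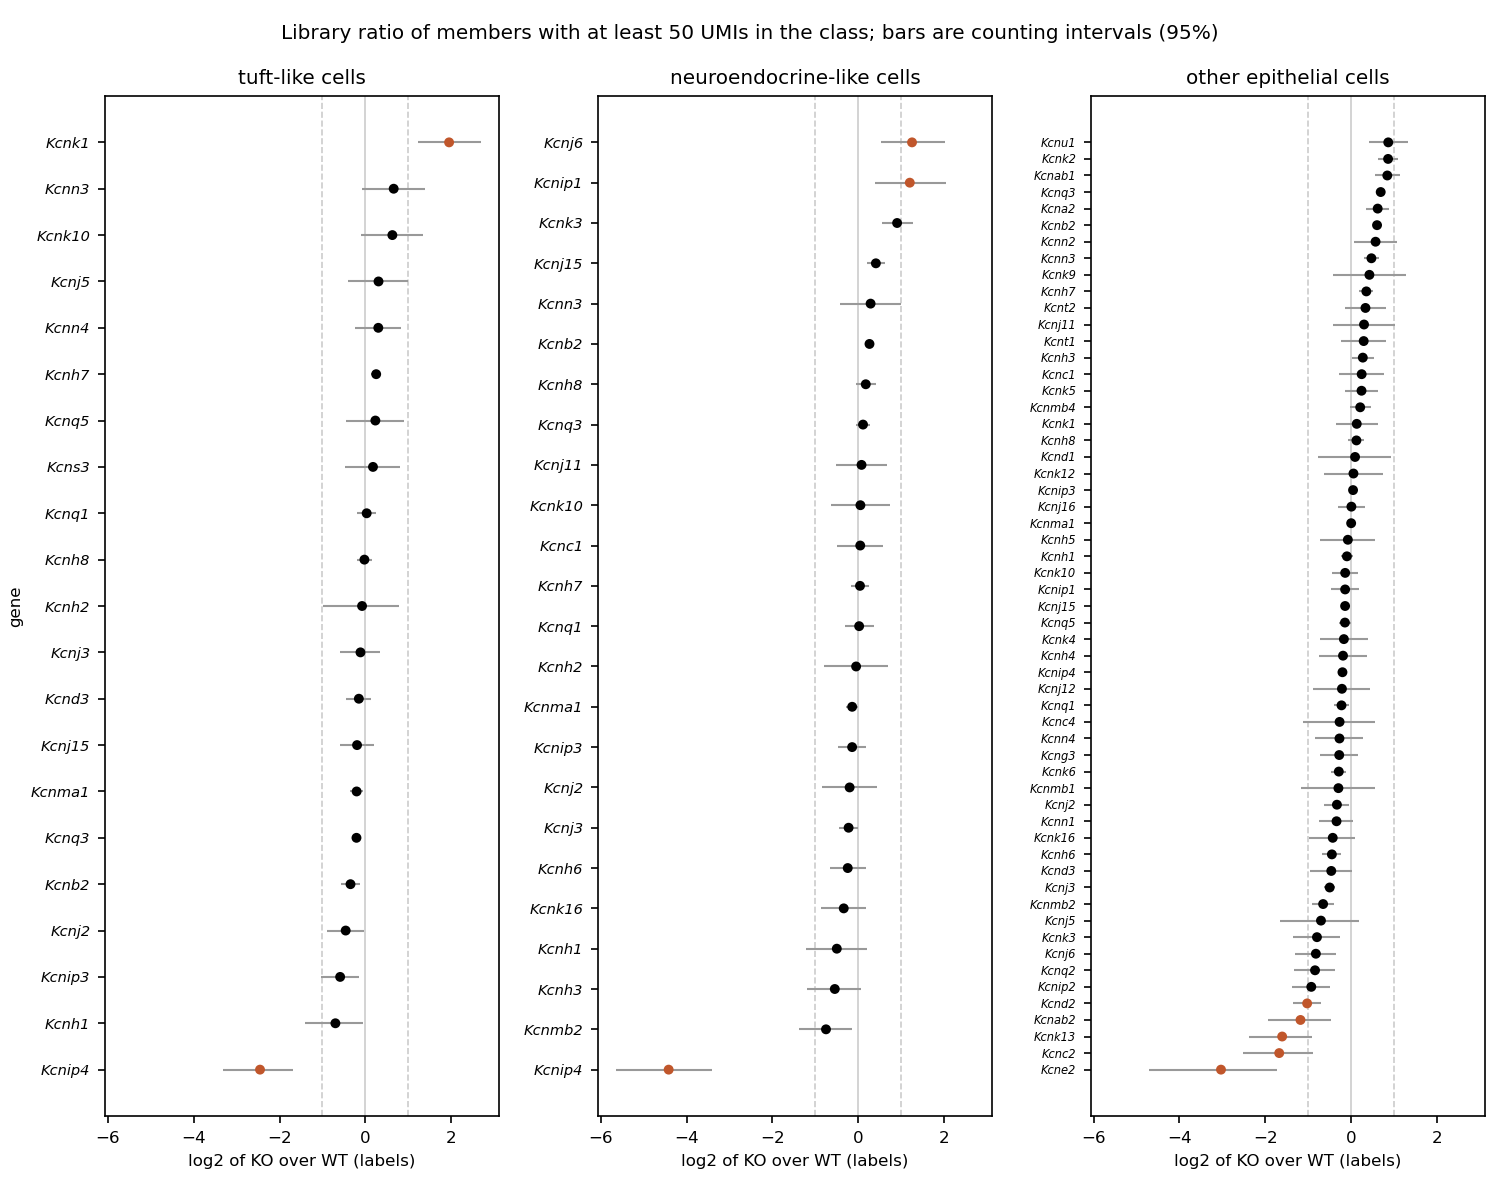
Log2 ratio of the library labelled KO over that labelled WT for members with at least 50 UMIs in tuft-like, neuroendocrine-like and other epithelial cells, sorted, with exact conditional binomial intervals and dashed lines at 2-fold. Orange points are the 2, 3 and 5 genes past 2-fold, of which Kcnip4 lies lowest in the first 2 panels.

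Kcnip4, which encodes a calcium-sensing accessory subunit of Kcnd channels, was the member that differed most between the libraries in both of these classes. In tuft-like cells it had 15 UMIs (7.74 CPM) under the KO label and 156 UMIs (42.4 CPM) under the WT label, a log2 ratio of -2.45 (-3.33 to -1.69). In neuroendocrine-like cells it had 8 UMIs (4.57 CPM) and 192 UMIs (97.8 CPM), a log2 ratio of -4.42 (-5.65 to -3.41). A single cell gave 95 of those 192 UMIs (49.5%), and without the cell of most UMIs in each library the ratio was -4.11 in neuroendocrine-like and -2.64 in tuft-like cells, an alternative chosen after seeing the data. The direction was not the same in all classes. Kcnip4 was also lower in KO in Ccl21 mTEC-like cells (7.70 and 34.2 CPM), basal epithelial-like clusters 6 (14.1 and 97.6 CPM) and 7 (24.0 and 146 CPM) and cycling-like cells (4.39 and 18.9 CPM). It was higher in KO in Aire-stage cells (270 and 211 CPM), keratinocyte-like cells (26.5 and 16.3 CPM), microfold-like cells (153 and 92.8 CPM) and unnamed cluster 5 (130 and 86.6 CPM). In the first pair of these classes 1 cell set the direction. One Aire-stage cell of the KO library held 487 of 1365 Kcnip4 UMIs, and one keratinocyte-like cell 25 of 37. Without the cell of most UMIs in each library the levels were 174 (KO) and 192 (WT) CPM in Aire-stage cells and 8.66 and 12.7 CPM in keratinocyte-like cells. Microfold-like cells (69.2 and 54.7 CPM) and unnamed cluster 5 (99.7 and 74.7 CPM) were still higher in KO without it. The share of cells with a Kcnip4 UMI was also lower in KO in the tuft-like and neuroendocrine-like classes, 2.96% against 10.2% of tuft-like and 3.53% against 11.4% of neuroendocrine-like cells, before thinning. Thymocyte-like cells (31 KO, 38 WT), which are not epithelial, held 1 UMI (6.05 CPM) in KO and 15 (57.5 CPM) in WT of Kcnip4. The order was the same in these few cells, where the part of single cells was not tested. The part of free RNA in this difference was not tested.

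**Figure D5:**
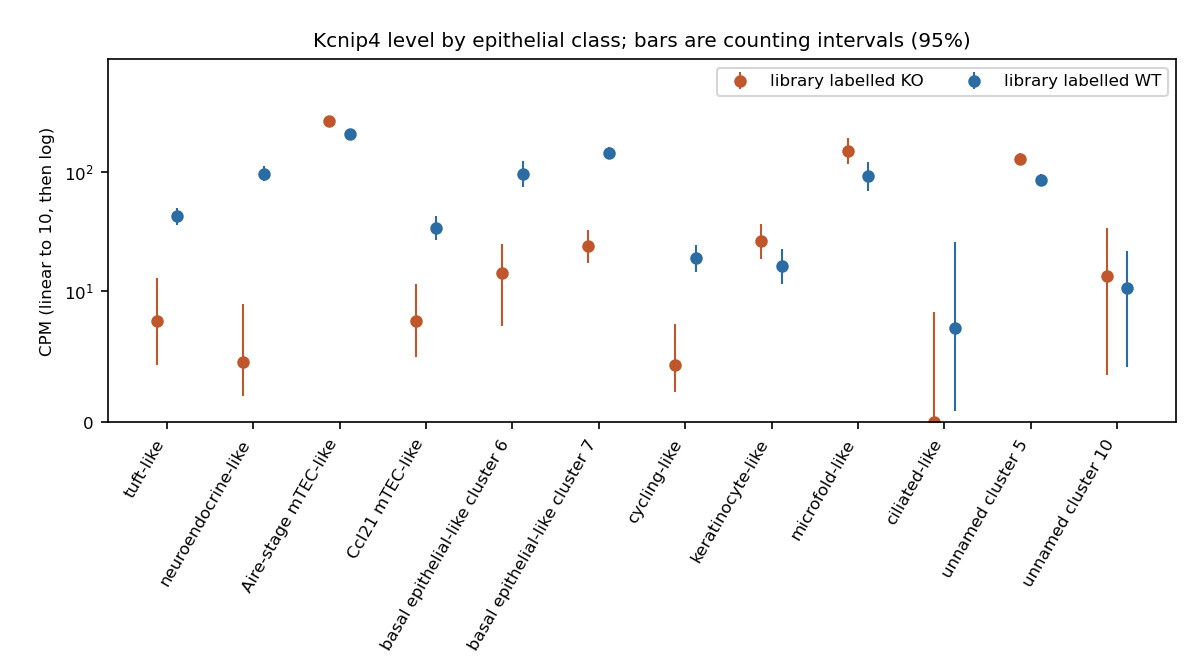
Kcnip4 level (CPM, linear to 10 and logarithmic above) in each epithelial class of the library labelled KO (orange) and WT (blue), with exact Poisson intervals. In tuft-like, neuroendocrine-like, Ccl21 mTEC-like, basal epithelial-like and cycling-like cells the KO point lies below the WT point, and in Aire-stage, keratinocyte-like, microfold-like and unnamed cluster 5 cells it lies above. Without the cell of most UMIs in each library it would lie below in Aire-stage (174 against 192 CPM) and keratinocyte-like cells (8.66 against 12.7 CPM).

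Apart from Kcnd2, the remaining members past the 2-fold limit had few UMIs or few cells behind them. Kcnk1 (TWIK-1), a weak two-pore channel, had 51 UMIs (26.3 CPM) in tuft-like cells of the library labelled KO and 25 (6.80 CPM) in WT, a log2 ratio of 1.95 (1.24 to 2.70). In neuroendocrine-like cells the Kcnd accessory subunit Kcnip1 had 41 and 20 UMIs (1.20, 0.40 to 2.05), where 10 of the 20 WT UMIs came from 1 cell. The G protein-gated rectifier Kcnj6 had 51 and 24 UMIs (1.25, 0.53 to 2.02). Kcnk3 fell just short, at 98.3 and 52.4 CPM (0.91). In other epithelial cells Kcnd2, an A-type channel, had 113 and 309 UMIs in 49 and 89 cells (6.07 and 12.3 CPM, -1.02). Most of these, 63 and 215 UMIs, lay in Aire-stage cells. Kcne2, an accessory subunit, had 5 and 55 UMIs (-3.03, -4.71 to -1.72), of which 4 and 50 lay in Aire-stage cells. Kcnk13, a two-pore gene, had 21 and 86 UMIs (-1.61), with 24 of the 86 in 1 cell. Kcnab2, a beta subunit of Kcna channels, had 22 and 67 (-1.18). Kcnc2, a fast delayed rectifier, had 17 and 73 (-1.67), with 46 of the 73 in 1 cell. All 5 were lower in the library labelled KO, a direction taken by 2.86% of all genes at this limit, and other epithelial cells pool classes whose shares differ between the libraries, Aire-stage cells being 440 of 2819 (KO) and 705 of 3213 (WT).

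Ion transport genes outside the family were read with the same rule from lists of sodium channels, calcium channels, channel partners and other potassium transport. Of all genes, 4.59% were called in tuft-like and 3.17% in neuroendocrine-like cells, and the lists are short beside these shares. The listed genes describe the classes only, since several took part in the clustering. Scn2a, Cacna2d1 and Cacnb2 were among the leading genes of their clusters. Of the sodium channels, 1 of 5 was called in tuft-like cells, Scn2a at 53.2 (KO) and 70.7 (WT) CPM against 0.75 and 0.56 CPM. In neuroendocrine-like cells 1 of 5 was called, Scn3a at 212 and 191 CPM against 8.27 and 14.5 CPM. Of the calcium channel genes, 3 of 11 were called in tuft-like cells (Cacna1d, Cacnb4 and Cacna2d2). In neuroendocrine-like cells 4 of 10 were called (Cacna1a, Cacna1h, Cacnb2 and Cacna2d1). The L-type pore Cacna1d was at 156 and 140 CPM in tuft-like cells against 24.3 and 31.4 CPM, and the auxiliary subunit Cacna2d1 at 3359 and 2506 CPM in neuroendocrine-like cells against 68.5 and 68.8 CPM. Of channel partners 0 of 5 and 0 of 3 were called, and of other potassium transport genes 1 of 11 and 0 of 10. The Kcnd partner Dpp10 was below the level of other epithelial cells in both classes, at 273 and 259 CPM in tuft-like and 307 and 306 CPM in neuroendocrine-like cells against 726 and 799 CPM.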

How the data were processed

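The authors deposited raw, unnormalized UMI counts, written by Cell Ranger 7.0.1 according to the file headers. Seurat and the build mm10 appear in the submitters' processing notes. Which transcript end was read and whether intronic reads were counted is not given in the sources used here. No barcode had fewer than 500 UMIs. Kept were cells of 500 genes and 1000 UMIs or more with a mitochondrial share of 10% or less, 83.8% (KO) and 81.4% (WT). Scrublet in scanpy 1.11.5 called 0 doublets and is taken not to have worked, so none were removed.

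Both libraries were clustered together (3000 variable genes, 30 components, 15 neighbours, Leiden resolution 1) without the potassium channel genes, Foxp1, Xist, Tsix and Y-linked, mitochondrial, ribosomal and haemoglobin genes. Clusters were named when at least 3 markers and 33% of a list were 2-fold raised in 10% of their cells, with a marker among the 10 leading genes (2 for a mimetic name) or 66% of the list. The naming thresholds were chosen with the clusters in view. Endothelial-, fibroblast-, mesothelial- and thymocyte-like clusters were left out of the epithelial cells.

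Levels carry exact Poisson, ratios conditional binomial and shares Clopper-Pearson intervals, and the limit for a count of 0 is 3 counts. Where a reference had fewer than 3 counts, 3 were used. The rules were run on simulated counts with known folds. Genes named are all those past a rule, the 10 highest per class and the 3 largest folds of other named classes; values are given for those the results turn on, and 3 called members that are counted are not reported by name or drawn here. The members, lists and rules were chosen with earlier results of these data known. Of the 92 genes, 4 overlap another gene on the same strand and 32 on the opposite strand in GENCODE vM21, and their UMIs are less certain. Alternatives covered the cell filter, clustering resolution, separate clustering, doublet scores, marker-based classes, equal weight per cell, fold and UMI limits and the reference cells.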

Additional observations from a re-analysis of the deposited data

Results flagged for a closer look

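Among members with at least 50 UMIs in a class, Kcnj6 and Kcnq3 moved at least 2-fold in opposite directions between the libraries in different classes, and the differences between classes were not tested. The log2 ratio of KO over WT for Kcnj6 was 1.25 in neuroendocrine-like cells and -1.16 in keratinocyte-like cells. For Kcnq3 it was 1.15 in ciliated-like cells and -1.86 in unnamed cluster 10, the classes with 88 and 25 and with 11 and 89 Kcnq3 UMIs (KO and WT). Outside the epithelium, in cells the comparisons do not use, 3 members passed the class rule against epithelial cells. Endothelial-like cells held Kcna5 at 12.2 (KO) and 10.1 (WT) CPM and Kcnc2 at 17.2 and 20.1 CPM, and thymocyte-like cells held Kcnq5 at 363 and 153 CPM. In endothelial-like cells 2 of 23 members were called (2.89% of all genes) and in thymocyte-like cells 1 of 4 (3.29%).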

How the results depend on the processing

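The log2 library ratio of Kcnip4 reversed without the cell of most UMIs in each library in Aire-stage (-0.14) and keratinocyte-like cells (-0.55). No class ratio, and no library ratio in tuft-like, neuroendocrine-like or pooled other epithelial cells, of a named member reversed: of 414 class ratios 350 stayed within the counting interval and 64 moved beyond it, and of 100 library ratios 96 stayed and 4 moved. The summed fold over other epithelial cells (tuft-like KO, tuft-like WT, neuroendocrine-like KO, neuroendocrine-like WT) was 1.54, 1.85, 1.68 and 1.83 with a stricter cell filter, 1.504, 1.80, 1.65 and 1.81 with libraries clustered on their own, 1.32, 1.498, 1.34 and 1.46 with classes from marker UMIs and 1.14, 1.38, 1.33 and 1.53 with equal weight per cell. Without the highest doublet scores it was 1.52 and 1.81 in tuft-like cells and 1.85 in neuroendocrine-like cells (WT), and for tuft-like cells (WT) 1.77 at resolution 0.5 and 1.77 at resolution 2. The tuft-like calls numbered 7 at 8-fold and 8 against all cells outside the class, where Kcnh2, Kcnj11, Kcnj2 and Kcnq1 were among those lost because neuroendocrine-like cells then enter the reference. The neuroendocrine-like calls numbered 18 at 2-fold and 6 at 8-fold. Members apart between libraries in tuft-like cells numbered 6 with marker-based classes, 6 at 20 UMIs and 1 at 100 UMIs, in neuroendocrine-like cells 1 at 100 UMIs, and in other epithelial cells 12 at 20 UMIs and 2 at 100 UMIs. Of the tuft-like calls, Kcnj13 was lost with the stricter filter and without the highest doublet scores, Kcnq1 with separate clustering, and Kcnj2 and Kcnq1 with marker-based classes. Of the library calls, Kcnip1 (neuroendocrine-like) was lost with marker-based classes and without the highest doublet scores, Kcnab2 and Kcnd2 (other epithelial) with marker-based classes and with equal weight per cell, and Kcne2 (other epithelial) with marker-based classes, and the cause was not tested. The limit of 100 UMIs, which tests fewer genes, removed Kcnk1, Kcnip1, Kcnj6, Kcnab2, Kcnc2 and Kcne2. Low UMI counts limited every family, and 9 of 15 accessory genes had fewer than 10 UMIs in tuft-like cells in a library. Whether depth or absent expression lay behind the low counts was not tested. No paired analysis was possible because each group is 1 library.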

Other observations

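At clustering resolution 2, a group of 58 (KO) and 26 (WT) cells carried the name of cortical epithelial cells, which the coarser clustering did not separate. In it Kcnk2 was at 168 (KO) and 204 (WT) CPM, against 14.9 and 8.88 CPM in all other epithelial cells, from 59 and 31 UMIs. It was the single call among the 6 members with enough UMIs, against 2.75% of all genes. Kcnh1 came next at 123 and 257 CPM against 33.7 and 37.1 CPM. Kcnq3, the member with the most UMIs in epithelial cells, was at 639 and 178 CPM in this group.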
